A study of Homo sapiens with 8 samples.

Results

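The genes described here are those joined to an immunoglobulin locus in multiple myeloma and the cyclin D genes with their reported partners: MAF, CCND1, CCND2, CCND3, NSD2, FGFR3, ITGB7, NUAK1 and DEPTOR. They were taken as every probe set of the array whose only gene symbol is one of these 9, which gave 26 probe sets of the 54675 on the array, for 9 of the 19775 genes that such probe sets name. MAF and NSD2 had 6 probe sets each, CCND2 had 4, CCND1, CCND3, FGFR3 and DEPTOR had 2 each, and ITGB7 and NUAK1 had 1 each. RNA from 8 cultures of 2 established human myeloma cell lines, RPMI-8226 and JJN3, was hybridised to 8 Affymetrix arrays. Each line gave 1 uninfected culture and 3 cultures given lentivirus, which carried a non-targeting (NT) shRNA, an shRNA against XBP1 or an shRNA against IRE1, the protein of the gene ERN1. Lentivirus was applied for 16 h with 8 µg/mL polybrene and cells were harvested at 96 h, and all cultures were grown in IMDM with fetal bovine serum, per the labels; no label states that the uninfected cultures were given polybrene. The lines are the only replicates of a treatment (n = 2), so no p-value measures the spread between separate cultures of 1 line. The fits allowed for a constant difference between the lines, so p-values for treatments weigh an effect against how unlike the treatment effects were in the 2 lines. Those for the lines weigh the line difference against how far it varied over the 4 unlike treatments, with 1 line on each side. Each SE (after ±) and p-value uses limma's moderated variance. It comes from the residuals of all 8 arrays and is drawn toward that of all probe sets, so it is no spread over 2 lines alone.

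Every myeloma tends to carry one dysregulated cyclin D gene, either because the gene itself is moved next to an immunoglobulin enhancer, as for CCND1 and CCND3, or downstream of another event. MAF is a leucine zipper transcription factor that is switched on by such a rearrangement in a subset of myelomas, and both RPMI-8226 and JJN3 are known as lines with a rearranged MAF gene; CCND2, ITGB7, NUAK1 and DEPTOR are reported as high in that subset. NSD2, a histone H3 lysine methyltransferase, and FGFR3, a receptor tyrosine kinase, lie near each other and are affected by one and the same rearrangement in another subset. IRE1 is a sensor of unfolded protein in the endoplasmic reticulum, and it cuts the XBP1 transcript so that the active XBP1 protein, which plasma cells need for secretion, can be made.

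The DNA in front of a few of these genes is shown to place them. The sequences are the 250 bases upstream of the gene start in RefSeq on GRCh38.p14, written 5′ to 3′ on the strand of the gene; 6 of the 9 genes gave 8 such windows, 3 of them of CCND3. MAF is shown because probe sets of it fell with the XBP1 shRNA, ITGB7 because it is the reported MAF target that moved most like DEPTOR, and the CCND3 window because it alone held the MAF core motif. Capitals mark a motif match: TGACGTCA, the cAMP response element, in MAF and TGCTGAC, the core that MAF proteins recognise, in CCND3.
MAF chr16:79600738-79600987, minus strand: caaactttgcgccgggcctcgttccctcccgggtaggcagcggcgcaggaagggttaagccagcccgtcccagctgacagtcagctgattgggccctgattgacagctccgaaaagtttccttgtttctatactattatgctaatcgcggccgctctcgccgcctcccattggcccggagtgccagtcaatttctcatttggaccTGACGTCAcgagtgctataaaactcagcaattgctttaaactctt
ITGB7 chr12:53207252-53207501, minus strand: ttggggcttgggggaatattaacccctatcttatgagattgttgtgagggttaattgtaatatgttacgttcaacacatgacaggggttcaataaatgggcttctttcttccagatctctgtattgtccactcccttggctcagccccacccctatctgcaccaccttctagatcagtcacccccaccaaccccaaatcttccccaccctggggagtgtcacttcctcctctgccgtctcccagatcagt
CCND3 chr6:41939206-41939455, minus strand: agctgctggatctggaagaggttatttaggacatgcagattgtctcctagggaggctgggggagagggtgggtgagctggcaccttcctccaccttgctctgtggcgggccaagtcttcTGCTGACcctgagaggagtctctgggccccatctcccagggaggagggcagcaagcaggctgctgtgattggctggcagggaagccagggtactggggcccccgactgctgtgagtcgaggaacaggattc
Both strands were searched. TGACGTCA began 45 bases before the MAF gene start and was in 1.65% of the 35116 windows of all genes; this motif was looked for after the MAF sequence had been read. TGCTGAC began 131 bases before the gene start of that CCND3 window and was in 3.43% of all windows. The AP-1 site TGACTCA (4.2% of all windows) and the XBP1 element GACGTG (6.5%) had 0 matches in the 8 windows. TGACGTCA and GACGTG share the run GACGT, and TGCTGAC can overlap TGACTCA or TGACGTCA by its TGAC. A match or its lack is a description of these letters and not of binding. The windows of FGFR3 (chr4:1793043-1793292) and NSD2 (chr4:1871143-1871392), both on the plus strand and not printed, lie on the same stretch of chromosome 4.

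The deposited values are centred: each probe set has a median of 0 over the 8 arrays. A value therefore says how far an array lies from that probe set's own middle, in log2 units, and not how strongly a gene was expressed, so neither genes nor probe sets can be ranked by level and plasma cell identity cannot be read from levels. Array quality was checked on control probe sets, and labels on the XBP1 and ERN1 probe sets of largest SD. The medians of the hybridisation controls ran from -0.15 to 0.42. The highest was the JJN3 array labelled IRE1 shRNA, with 0.09 the next, and its part in the differences was not tested. The medians of the poly-A spike-in controls ran from -0.17 to 0.43 and were, within each line, highest on the array with the XBP1 shRNA: 0.43 against 0.25 with NT in RPMI-8226, and 0.19 against -0.05 in JJN3. On the arrays labelled XBP1 shRNA the XBP1 probe set with the largest SD stood at 65.9% (RPMI-8226) and 45.6% (JJN3) of NT, and on those labelled IRE1 shRNA at 64.7% and 16.8%. On those labelled IRE1 shRNA, the ERN1 probe set stood at 129.8% (RPMI-8226) and 53.9% (JJN3) of NT, so the label is not borne out by this probe set in RPMI-8226; ERN1 was lower on the XBP1 shRNA arrays (36.7% and 42.9%). Each transcript was thus lower on the arrays labelled with the other shRNA than on its own, by little for XBP1 in RPMI-8226, and whether labels were exchanged was not tested. None of these 4 differences from NT passed the threshold over both lines (limma, adjusted p from 0.0926 to 0.894), so "XBP1 shRNA" and "IRE1 shRNA" below name the labels of the arrays and not a shown loss of either transcript.

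The lines differed most in CCND1, ITGB7 and DEPTOR 218858_at, all higher in RPMI-8226 in each of the 4 treatments. For MAF, CCND2 and NSD2 the direction depended on the probe set, and MAF 1566324_a_at, NUAK1, CCND2 200952_s_at and NSD2 223472_at were the furthest up in JJN3. Adjusted p was under 0.05 (limma with treatment as a block, Benjamini-Hochberg over 54613 probe sets) for 19 of the 26 probe sets, 8 higher and 11 lower in JJN3, and each of the 9 genes had at least 1. Because 56.0% of all probe sets passed the same threshold, the count itself is no result about these genes. With each array left out in turn, 12 of the 19 stayed past the threshold throughout and 7 were lost at least once: MAF 209347_s_at, CCND2 200951_s_at and 231259_s_at, CCND3 1562028_at, NSD2 209052_s_at and 222778_s_at, and FGFR3 204379_s_at (12 of 26 passed without either XBP1 shRNA array). The 4 arrays of a line are 4 differently treated cultures. In 13 of the 26 probe sets the arrays of the 2 lines did not overlap, against 48.7% of all probe sets. The 3'-to-5' signal difference of the actin control probe sets also separated the lines (-0.61 to -0.43 in RPMI-8226, 0.13 to 0.42 in JJN3), and its part in these differences was not tested.

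**Figure D1:**
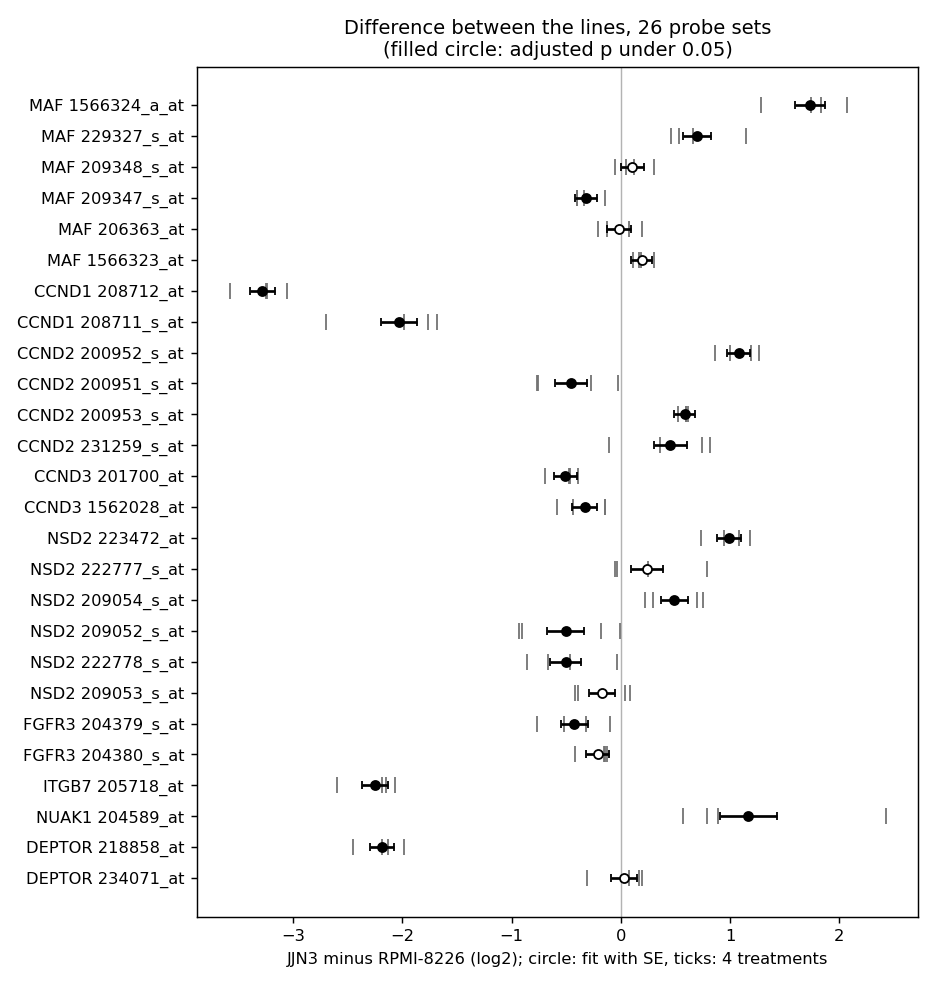
Difference between JJN3 and RPMI-8226 for each of the 26 probe sets (log2, x axis). Circles are the limma estimate with its SE, filled where adjusted p was under 0.05, and ticks are the difference within each of the 4 treatments. CCND1, ITGB7 and DEPTOR 218858_at lie between -3.28 and -2.03, and the probe sets of MAF, CCND2 and NSD2 lie on both sides of 0.

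CCND1 encodes cyclin D1, the cyclin that partners CDK4 and CDK6 in many epithelial cells and that normal B cells hardly use. Its probe set 208712_at read 1.49 on the uninfected, 2.10 on the NT, 1.495 on the XBP1 shRNA and 1.63 on the array labelled IRE1 shRNA of RPMI-8226. In JJN3 the same arrays read -1.57, -1.49, -1.74 and -1.61. Every RPMI-8226 array thus lay above every JJN3 array, by more than the spread within either line. The fitted difference was -3.28 ± 0.11 (moderated SE of the fit, n = 4 arrays a line, limma adjusted p = 4.72e-08), a 9.71-fold higher signal in RPMI-8226. The other probe set of CCND1, 208711_s_at, differed by -2.03 ± 0.16 in the same direction (limma adjusted p = 8.55e-06).

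CCND2 encodes cyclin D2, the D cyclin of B cells and the one reported with MAF. Probe set 200952_s_at read -0.73, -0.98, -0.28 and -0.67 on the uninfected, NT, XBP1 shRNA and IRE1 shRNA labelled arrays of RPMI-8226, and 0.45, 0.28, 0.58 and 0.33 in JJN3. All JJN3 arrays were above all RPMI-8226 arrays. The difference was 1.08 ± 0.11 (limma adjusted p = 3.67e-05), and 200953_s_at and 231259_s_at differed the same way, by 0.58 and 0.45. Probe set 200951_s_at went in the opposite direction (-0.46 ± 0.14, limma adjusted p = 0.0231), and its lines overlapped, so the CCND2 probe sets disagreed on the sign; this call was lost after cyclic loess (adjusted p = 0.113). CCND3, cyclin D3, was lower in JJN3 with both probe sets, by -0.51 ± 0.10 for 201700_at and -0.33 ± 0.11 for 1562028_at (limma adjusted p = 0.00267 and 0.0346); the second was lost after quantile normalisation (0.0978) and cyclic loess (0.255).

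MAF itself gave no single answer between the lines. Probe set 1566324_a_at read -0.64, -0.57, -0.82 and -0.47 on the uninfected, NT, XBP1 shRNA and IRE1 shRNA labelled arrays of RPMI-8226 and 1.10, 1.503, 0.47 and 1.36 in JJN3, without overlap. It was higher in JJN3 by 1.73 ± 0.13 (limma adjusted p = 6.65e-06) and 229327_s_at by 0.70 ± 0.13 (adjusted p = 0.00171, and 0.0909 without treatment as a block). Against that, 209347_s_at was lower in JJN3 by -0.32 ± 0.10 (limma adjusted p = 0.0235, but 0.0539 after quantile normalisation and 0.17 after cyclic loess), and 209348_s_at, 206363_at and 1566323_at differed by 0.10, -0.02 and 0.19 without passing the threshold. NSD2 split in the same manner: 223472_at (0.99 ± 0.11) and 209054_s_at (0.49 ± 0.12) were higher in JJN3, 209052_s_at and 222778_s_at (both -0.50) were lower, and 222777_s_at and 209053_s_at (0.24 and -0.17) did not pass. As the mean of its 6 probe sets, NSD2 differed by 0.09 between the lines, with a limma adjusted p of 0.498. FGFR3 204379_s_at was lower in JJN3 by -0.43 ± 0.13 (limma adjusted p = 0.0174) and 204380_s_at by -0.21 without passing; the first was lost without the uninfected or the XBP1 shRNA array of either line (adjusted p = 0.0652 and 0.0718).

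ITGB7, the integrin beta 7 chain of the receptors for MAdCAM-1 and E-cadherin, and DEPTOR, an inhibitor that binds mTOR, were much higher in RPMI-8226. ITGB7 205718_at read 1.42, 1.37, 0.77 and 1.06 on the uninfected, NT, XBP1 shRNA and IRE1 shRNA labelled arrays of RPMI-8226, and -0.77, -0.78, -1.30 and -1.54 in JJN3. DEPTOR 218858_at read 1.46, 1.37, 0.61 and 1.003 in RPMI-8226 and -0.67, -0.61, -1.58 and -1.45 in JJN3. In both genes every RPMI-8226 array stood above every JJN3 array, and within a line the arrays labelled XBP1 or IRE1 shRNA stood below the others. The line difference was -2.25 ± 0.12 for ITGB7 (limma adjusted p = 5.31e-07) and -2.19 ± 0.11 for DEPTOR (adjusted p = 4.52e-07), 4.76-fold and 4.56-fold higher in RPMI-8226. The other DEPTOR probe set, 234071_at, differed by 0.03 ± 0.12 and did not pass. NUAK1, a kinase of the AMPK family that LKB1 activates, went the other way: it was higher in JJN3 by 1.17 ± 0.26 (limma adjusted p = 0.00473), although its lines overlapped. By their leading probe sets the reported MAF targets did not share a direction. ITGB7 and DEPTOR were lower and CCND2 and NUAK1 higher in the line with the higher MAF 1566324_a_at signal. Leading probe sets were picked by SD over the arrays of both lines, a choice that favours large line differences. ITGB7 and NUAK1 had 1 probe set each, so their opposite directions involved no choice. Past the threshold, CCND2 200951_s_at and MAF 209347_s_at went against the leading probe set of their gene. CCND2 200953_s_at and 231259_s_at and MAF 229327_s_at went with it.

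**Figure D2:**
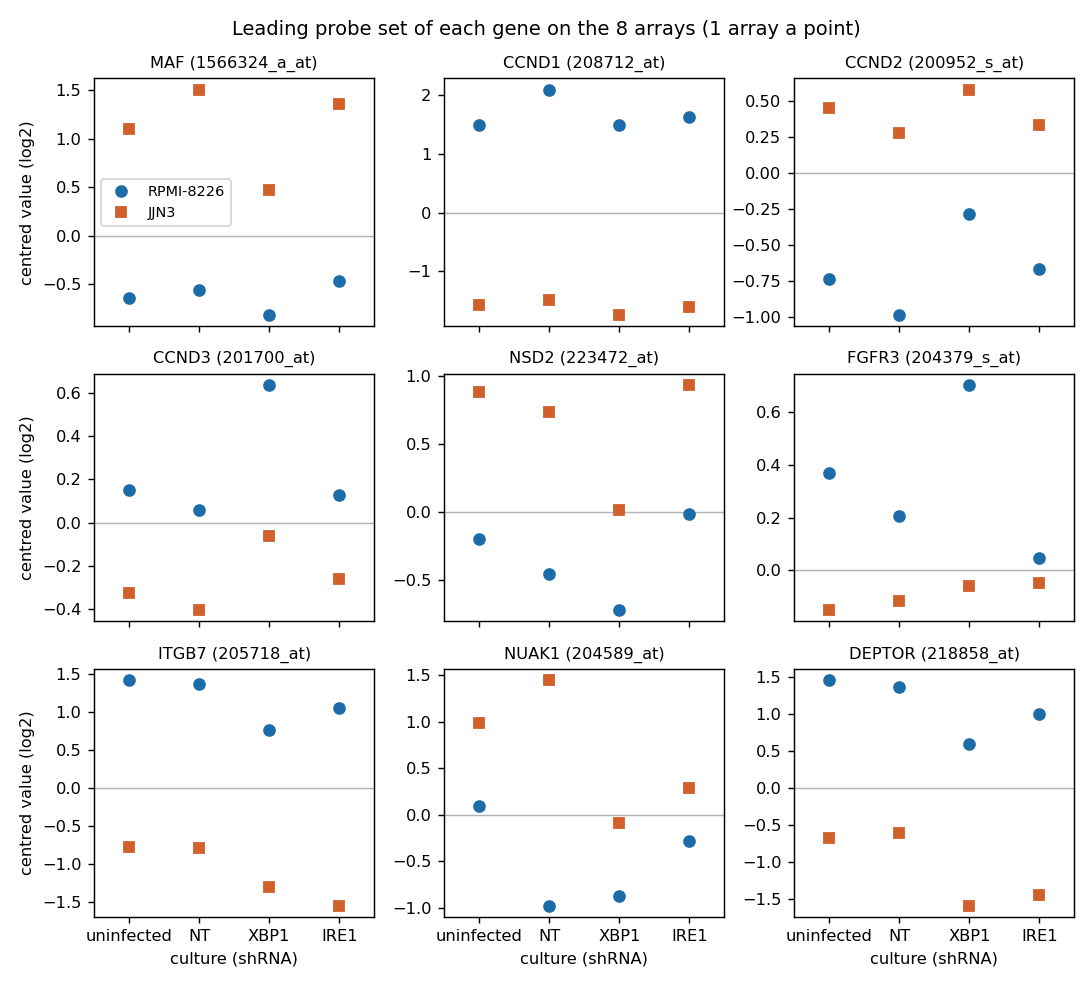
Centred values (log2, y axis, with its own scale in each panel) of the probe set of highest SD for each gene on the 8 arrays, by culture. Circles are RPMI-8226 and squares JJN3, 1 array each. ITGB7 and DEPTOR are lower on the arrays labelled XBP1 or IRE1 shRNA than on the other 2 of each line, and the NT array of NUAK1 is the lowest of RPMI-8226 and the highest of JJN3.

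On the arrays labelled XBP1 shRNA, 2 probe sets of MAF and 1 of DEPTOR fell past the threshold relative to NT, with both lines lower. None of the 26 rose past it. These 3 of 26 stand against 1.21% of all probe sets past the same threshold (660 of 54613; limma with the line as a block, 8 arrays). Unadjusted p was under 0.05 for 13 of the 26, against 13.7% of all probe sets. Probe sets of 1 gene are not independent: the 2 MAF probe sets had r = 0.992 after each line's mean was taken out. The 3 belong to 2 of the 9 genes, so neither count is a result about the 9 genes as a group. Whether past the threshold or not, 15 of the 26 differences were negative and 11 positive.

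MAF 229327_s_at read 0.10 on the uninfected, -0.10 on the NT, -0.97 on the XBP1 shRNA and -0.10 on the IRE1 shRNA labelled array of RPMI-8226, and 0.76, 1.05, -0.44 and 0.36 in JJN3. The XBP1 shRNA array was the lowest of its line in both. The difference from NT was -1.18 ± 0.18 (moderated SE of the fit to 8 arrays, n = 2 lines, limma adjusted p = 0.0282). This left 54.5% of the NT signal in RPMI-8226 and 35.6% in JJN3. MAF 209348_s_at read 0.15, 0.04, -0.67 and -0.04 in RPMI-8226 and 0.19, 0.34, -0.55 and -0.09 in JJN3, and it fell by 0.80 ± 0.15 on the log2 scale (limma adjusted p = 0.0441). The other 4 MAF probe sets were lower with the XBP1 shRNA in both lines without passing the threshold, and the 6 ran from -1.18 to -0.17 with a median of -0.50. After each line's mean was taken out, all 15 pairs of MAF probe sets correlated positively over the 8 arrays (r from 0.372 to 0.992, median 0.764); for 1566324_a_at and 209347_s_at, the called probe sets that went opposite ways between the lines, r was 0.375.

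**Figure D3:**
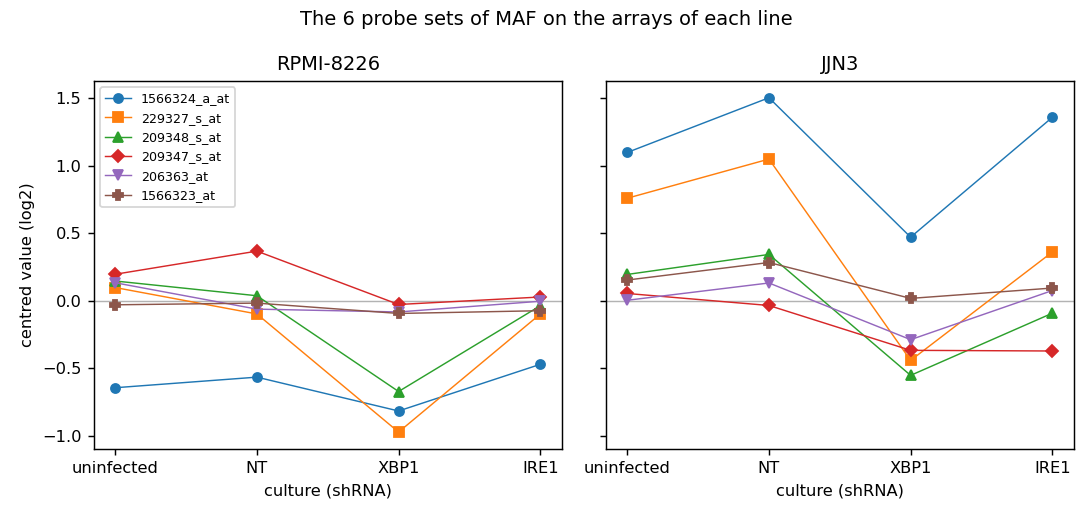
Centred values (log2, y axis) of the 6 MAF probe sets on the 4 arrays of RPMI-8226 (left) and of JJN3 (right); lines only join the points of a probe set. In both lines 229327_s_at and 209348_s_at have their lowest value on the XBP1 shRNA array, and 1566324_a_at lies far apart between the lines.

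DEPTOR 218858_at fell by 0.87 ± 0.16 on the log2 scale with the XBP1 shRNA (limma adjusted p = 0.0408), to 58.8% of NT in RPMI-8226 and 50.8% in JJN3. The DEPTOR probe set 234071_at differed by -0.18 and did not pass. ITGB7 stood at 65.8% of NT in RPMI-8226 and 69.9% in JJN3 (difference -0.56 ± 0.17, limma adjusted p = 0.159). NUAK1 read 0.09, -0.98, -0.88 and -0.28 on the uninfected, NT, XBP1 shRNA and IRE1 shRNA labelled arrays of RPMI-8226 and 0.98, 1.45, -0.09 and 0.29 in JJN3. Its difference from NT was 0.10 in RPMI-8226 and -1.54 in JJN3, so the lines did not move together relative to NT, although the XBP1 shRNA array was below the uninfected one in both, and the mean of -0.72 ± 0.37 did not pass (limma adjusted p = 0.456). CCND2, by contrast, was above NT in the mean of the lines with all 4 probe sets (0.17 to 0.65, median 0.45), and in both lines with 3. CCND2 231259_s_at was below NT in RPMI-8226 (-0.25). CCND3 201700_at was above NT by 0.46 ± 0.14, and 1562028_at by 0.02 with the lines opposite in sign. None of these passed the threshold (lowest limma adjusted p 0.174 for CCND2 and 0.184 for CCND3). CCND1 208712_at lay below NT by -0.60 in RPMI-8226 and -0.26 in JJN3 (limma adjusted p = 0.273). NSD2 probe sets ran from -0.49 to 0.46 and FGFR3 from 0.06 to 0.28.

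These 3 calls depended on single arrays. The MAF 229327_s_at call held without the IRE1 shRNA labelled array of either line (limma adjusted p = 0.0457) and was lost without each of the other 6 arrays (0.0572 to 0.161), while MAF 209348_s_at (0.0729 to 0.249) and DEPTOR 218858_at (0.0572 to 0.241) were lost without any 1 of the 8; after quantile normalisation none of the 3 passed (0.0742, 0.0865 and 0.0559), nor did any without the line as a block (adjusted p = 1), and MAF 209348_s_at was lost after cyclic loess (0.0518). The differences kept their sign throughout, from -1.48 to -0.88, from -0.94 to -0.67 and from -1.01 to -0.73 over the arrays left out. The mean of 7 of 7 plasma cell markers moved with the same arrays: in RPMI-8226 it was 0.06 with the XBP1 shRNA against 0.55 with NT, in JJN3 -0.71 against -0.11, and the poly-A controls were highest there. On the arrays labelled IRE1 shRNA the marker mean was 0.63 in RPMI-8226 and -0.60 in JJN3, so in JJN3 it was low with both shRNAs. The ranges over the 8 arrays were -0.24 to 0.21 for 4 T and NK cell markers, -0.15 to 0.14 for 3 myeloid and -0.40 to 0.31 for 3 stromal markers, all measured. The part of these in the MAF and DEPTOR differences was not tested, and fewer cells of a kind and less RNA per cell cannot be told apart in such bulk samples.

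**Figure D4:**
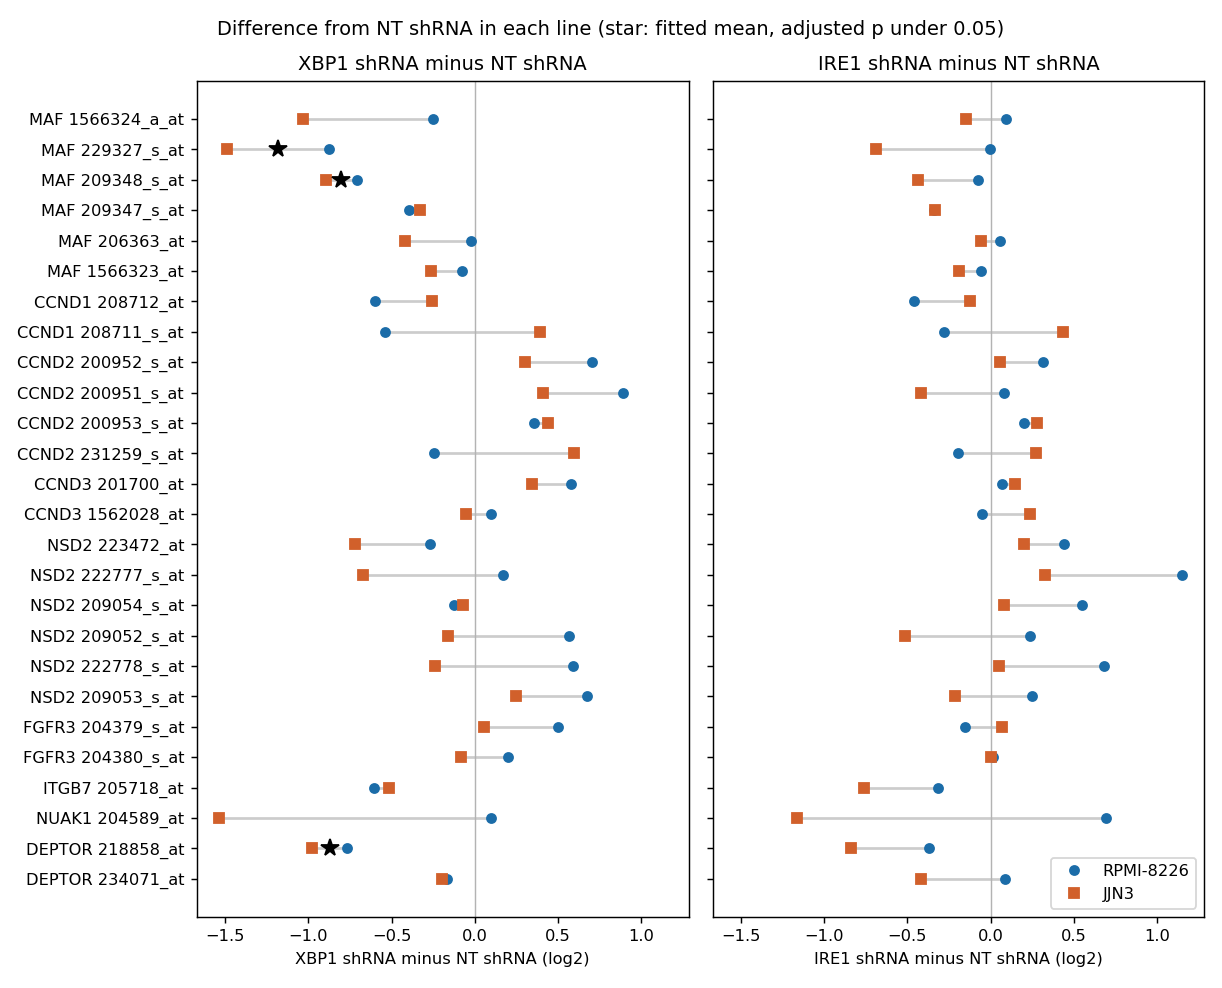
Difference from the NT array of the same line (log2, x axis) for the XBP1 shRNA (left) and the IRE1 shRNA (right), for the 26 probe sets. Circles are RPMI-8226, squares JJN3, and stars mark the limma mean where adjusted p was under 0.05; both panels use the same NT arrays. All 6 MAF probe sets lie below 0 in both lines in the left panel.

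The arrays labelled IRE1 shRNA differed less from NT, with which they share the same 2 NT arrays as the comparison above. None of the 26 probe sets passed (0 of 26 by limma, 4 with an unadjusted p under 0.05), and 0.0183% of all probe sets did (10, with 5170 at an unadjusted p under 0.05). DEPTOR 218858_at stood at 77.4% of NT in RPMI-8226 and 55.8% in JJN3 (-0.61 ± 0.16, limma adjusted p = 0.246), and ITGB7 at 80.3% and 59.0% (-0.54 ± 0.17, adjusted p = 0.32). MAF 229327_s_at was level with NT in RPMI-8226 (-0.10 on both arrays) and 0.69 lower in JJN3. NSD2 222777_s_at was higher by 1.15 in RPMI-8226 and 0.33 in JJN3 (limma adjusted p = 0.28). Its NT arrays were below the uninfected ones, however. It read 0.02, -0.81 and 0.34 on the uninfected, NT and IRE1 shRNA labelled arrays of RPMI-8226, and 0.27, -0.02 and 0.31 in JJN3.

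Between the arrays labelled IRE1 shRNA and XBP1 shRNA 1 of the 26 probe sets passed, against 1.90% of all, a share too near the background to be a result about these genes. It was NSD2 223472_at, which read -0.20, -0.45, -0.72 and -0.01 on the uninfected, NT, XBP1 shRNA and IRE1 shRNA labelled arrays of RPMI-8226 and 0.88, 0.73, 0.01 and 0.93 in JJN3, so the XBP1 shRNA array was the lowest and the IRE1 shRNA labelled array the highest of each line. It was 0.81 ± 0.16 higher on the arrays labelled IRE1 shRNA (limma adjusted p = 0.0381). The call held without the RPMI-8226 XBP1 shRNA array (limma adjusted p = 0.0477), was lost without each of the other 7 arrays (0.0587 to 0.274) and was lost after quantile normalisation (0.154) and in the mean of the NSD2 probe sets (a difference of 0.27, adjusted p = 0.5). NSD2 222777_s_at (0.99 ± 0.21, adjusted p = 0.0526), MAF 229327_s_at (0.84 ± 0.18, adjusted p = 0.0598) and CCND2 200951_s_at (-0.82 ± 0.20, adjusted p = 0.0852) were just short of the threshold in limma. The 6 NSD2 probe sets did not move as one, running from -0.44 to 0.99; after removal of the line means 10 of their 15 pairs correlated positively and the lowest r was -0.387.

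The NT lentivirus moved none of these genes past the threshold. Between NT and uninfected arrays 0 of 26 probe sets passed in limma and 3 had an unadjusted p under 0.05; of all probe sets 0% passed and 3044 had an unadjusted p under 0.05. DEPTOR 218858_at (-0.01 ± 0.16) and ITGB7 (-0.03 ± 0.17) differed least among the leading probe sets of the reported MAF targets, and all 6 NSD2 probe sets were lower with NT in both lines (-0.55 to -0.20, lowest limma adjusted p = 0.873). NUAK1 was 1.07 lower with NT in RPMI-8226 and 0.46 higher in JJN3, so its NT arrays lay at opposite ends of the 2 lines.

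With the arrays of both shRNAs (silenced, by label) pooled against NT and uninfected arrays, 0 of 26 probe sets passed in limma (6 with an unadjusted p under 0.05), as did 0% of all (5080 with an unadjusted p under 0.05). DEPTOR 218858_at was lower by -0.74 ± 0.12 (limma adjusted p = 0.149), ITGB7 by -0.56 ± 0.11 (adjusted p = 0.156) and MAF 229327_s_at by -0.74 ± 0.23 (adjusted p = 0.334). Silenced and control arrays did not overlap within either line in 8 of the 26 probe sets, against 14.0% of all. They were lower in both lines in 6 of the 26, against 4.11% of all: MAF 229327_s_at, 209348_s_at, 209347_s_at and 1566323_at, ITGB7 205718_at and DEPTOR 218858_at. Most of these are probe sets of MAF alone, which are not independent, so the counts are no result about the genes as a group. CCND2 200953_s_at was higher in both lines, and NSD2 209052_s_at was higher in RPMI-8226 and lower in JJN3. The difference of the silencing effect between the lines passed in 0 of 26 (1 with an unadjusted p under 0.05), as in 0% of all by limma (2856 with an unadjusted p under 0.05). The silencing effect in JJN3 minus that in RPMI-8226 was -0.82 ± 0.26 for NSD2 209052_s_at (limma adjusted p = 0.908) and -0.98 ± 0.50 for NUAK1 (adjusted p = 0.952).

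The 70 measured genes (of 77 listed) around these 9 were followed through 8 lists, each gene by its probe set of highest SD. With the XBP1 shRNA 1 of the 70 passed, CDK6, the kinase partner of the D cyclins. Against 1.87% of 19775 genes, this count is no result about the lists. CDK6 243000_at read -0.67, -0.47, -2.06 and -0.01 on the uninfected, NT, XBP1 shRNA and IRE1 shRNA labelled arrays of RPMI-8226 and 1.88, 1.63, 0.01 and 1.28 in JJN3. It fell by 1.61 ± 0.25 on the log2 scale (limma adjusted p = 0.0283), with -1.60 in RPMI-8226 and -1.62 in JJN3; the call was lost without any 1 of the NT or XBP1 shRNA arrays (adjusted p 0.0727 to 0.19), after quantile normalisation (0.0597) and without the line as a block. Of the 7 CDK6 probe sets, 224847_at, 224848_at and 224851_at also fell, by 0.94, 1.04 and 1.06 (limma adjusted p = 0.0283, 0.0233 and 0.0264), with 235287_at at -1.45 (adjusted p = 0.0505), 207143_at at -0.60 and 231198_at at -0.20 short of the threshold. Of the D cyclins, CCND1 208712_at lay below NT on these arrays, but in RPMI-8226 it was level with the uninfected array (1.495 against 1.49). CCND1 208711_s_at differed from NT by -0.54 in RPMI-8226 and 0.39 in JJN3. The CCND2 probe sets and CCND3 201700_at lay above NT in the mean of the lines. None of these D cyclin differences passed the threshold.

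The other lists gave no gene past the threshold with the XBP1 shRNA. The largest differences were FGFR1 at 0.97 (limma adjusted p = 0.0541) in FGF receptor signalling, KDM2B, an H3 lysine 36 demethylase, at 0.90 (0.0507), CDH1, the E-cadherin ligand of one beta 7 integrin, at -1.25 (0.0559), the myosin phosphatase subunit PPP1CB at -0.74 (0.152), MAFF at 0.60 (0.394) and MAPKAP1, a subunit of mTOR complex 2, at -0.41 (0.442). SPP1, osteopontin, led the genes reported with MAF at -1.88 (adjusted p = 0.351), from -4.10 in RPMI-8226 and 0.33 in JJN3. NT itself differed from uninfected by -0.39 for FGFR1, -0.76 for KDM2B and 1.75 for SPP1 (3.67 in RPMI-8226), against the signs above. The XBP1 shRNA differences of these genes from NT thus exceeded those from uninfected arrays. For CDH1 (-0.36), PPP1CB (-0.30), MAFF (0.67) and MAPKAP1 (-0.82) NT differed from uninfected with the sign given above. None of these NT differences passed the threshold. With the IRE1 shRNA against NT 0 of the 70 passed, against 0.0354% of all genes. Between the shRNAs 2 of the 70 passed, against 2.86%: CDK6 243000_at was 1.66 ± 0.25 and MAPKAP1 222426_at 1.34 ± 0.20 higher on the arrays labelled IRE1 shRNA (limma adjusted p = 0.0196 for both), and without single XBP1 or IRE1 shRNA arrays these rose to at most 0.0797 and 0.198. The other 3 MAPKAP1 probe sets differed by 0.20, 0.14 and -0.47. The count of 2 between the shRNAs is at the background share and so is no result about the lists.

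Between the lines 51 of the 70 passed, 23 higher and 28 lower in JJN3, against 68.8% of all genes. The count itself is thus no result about these genes, and the counts by list were not tested against that share. Of 7 genes reported with MAF, 5 were lower and 0 higher in JJN3 (median -1.49, against -0.23 over all genes), led by the fractalkine receptor CX3CR1 (-5.50), the toll-like receptor TLR4 (-5.22) and the neurotrophin receptor NTRK2 (-1.66). Of 14 genes of FGF receptor signalling, 10 were lower and 2 higher (SPRY2 1.93 and FGFR1 0.70). The target genes ETV5 (-4.71), SPRY1 (-2.17) and DUSP6 (-2.16) were the furthest down, and FGFR3 was lower too. Of 6 relatives of NSD2 and H3 lysine 36 enzymes, 5 were higher and 0 lower: NSD3 (2.37), NSD1 (1.94) and KDM2A (1.27) led. Cyclin D partners and inhibitors were split, 8 higher and 3 lower of 17, with CCNE2 (2.63), CDKN1C (2.25) and CDK6 (2.003) higher. Of 8 genes in the list of integrin beta 7 partners, ligands and activators, 3 were higher (ITGA4 2.02, ITGB1 1.84 and CDH1 1.76) and 4 lower. Of the alpha chains that pair with integrin beta 7, ITGA4 was higher in JJN3 and ITGAE lower (-0.86), the latter in the direction of ITGB7. Of 10 genes of the mTOR complexes 2 were higher and 4 lower (RICTOR -0.99, MTOR 0.84, PRR5L -0.84), of 5 in the NUAK and LKB1 list 2 were higher and 1 lower (PPP1R12A 0.90, CAB39 0.63, STK11 -0.58), and of 3 MAF relatives 1 was higher and 1 lower (MAFG 0.40, NRL -0.36).

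Likeness of pattern was measured as Pearson's r over the 8 arrays after each line's mean was taken out; points of 1 line share their cells, and every pair shares the arrays. ITGB7 and DEPTOR 218858_at had r = 0.956, MAF 209348_s_at and DEPTOR 218858_at 0.922, and CCND2 200952_s_at and CCND3 201700_at 0.916. MAF 209348_s_at ran against CCND3 201700_at (-0.924) and had 0.579 with DEPTOR 234071_at. The leading MAF probe set, 1566324_a_at, was less alike, with 0.543 for DEPTOR 218858_at, 0.291 for ITGB7 and -0.658 for CCND3 201700_at. Among the other genes, those most like ITGB7 were ANKRD11, KDM4A and DNAH2 (r from 0.991 to 0.995), and those most like DEPTOR were HSD17B8, FUT1 and EPRS1 (0.990 to 0.995). For MAF 1566324_a_at they were TARDBP, ZNF577 and TMEM95 (0.970 to 0.978), and for CCND1 FRMD4A, ARSK and MRPS5 (0.981 to 0.988). For CCND2 they were KCNQ1OT1, HYLS1 and CTNNBL1 (0.987 to 0.998), for CCND3 HMGB1, CTAGE11P and ATCAY (0.979 to 0.986), and for NSD2 CENPU, LINC01770 and FOXQ1 (0.986 to 0.997). FGFR3 was nearest to LOC439933, NCAPG2 and PYHIN1 (0.976 to 0.984) and NUAK1 to CYTIP, GHR and ERVV-1 (0.977 to 0.981).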

How the data were processed

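RNA of 8 cultures was measured on Affymetrix U133 Plus arrays. The deposited values were made with RMA, per the submitters' processing notes, whose version is not given in the sources used here; they were taken as log2 because RMA returns that scale, and neither log base nor centring is stated. Each probe set has a median of 0 over the 8 arrays, so the deposited log2 values hold differences and no level or signal over background. Percentages and folds assume base 2. No 2 arrays held identical values (0 of 28 pairs). The number of arrays limits the precision.

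Probe sets were named from the platform annotation: 41097 had 1 symbol (19775 genes), 1801 several and 11777 none. The 62 control probe sets were left out, and limma 3.58.1 (R 4.3.3; lmFit and eBayes, two-sided) was run on the other 54613 (Benjamini-Hochberg, threshold 0.05) after a check on simulated data. Cell line was the block for treatments (3 residual degrees of freedom), treatment for the lines; the silenced against control fit had 5 and the interaction 4. The lines pair the arrays, since arrays of 1 line come from the same cells: their deviations from the treatment means correlated at 0.897 to 0.929. All 26 probe sets are counted. The leading probe set of a gene is the one of highest SD over the arrays of both lines. That SD includes the line difference, so the choice favours probe sets that differ between the lines. List genes were named where past the threshold (at most 3 a list and comparison), else the largest difference with the XBP1 shRNA. The other probe sets of CDK6 and MAPKAP1, and SPRY2 and FGFR1 between the lines, were added after their values were seen. Genes, lists and tests were chosen with earlier results of these data known. Alternatives were no block, quantile and cyclic loess normalisation, a filter on SD, 1 or the mean probe set per gene, robust eBayes and each array left out. Promoter windows came from RefSeq (GRCh38.p14).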

Additional observations from a re-analysis of the deposited data

Results flagged for a closer look

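Of 52 groups of 4 arrays (26 probe sets in 2 lines), 1 held an array far from the others, where chance gives about 1 in 20. CCND3 201700_at read 0.64 on the XBP1 shRNA array of RPMI-8226 and 0.06 to 0.15 on the other 3 arrays of that line, a gap of 0.839 of the whole range. The 4 arrays are differently treated cultures, and the XBP1 shRNA array of JJN3 was also the highest of its line for this probe set (-0.06, against -0.40 to -0.26).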

How the results depend on the processing

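Limits: each treatment has 2 arrays from unlike cell lines, values are centred, and weak signal cannot be told from background. Of the single probe set differences under the alternatives, 1066 kept sign and side of the threshold, 101 lost it, 3 gained it and 30 changed sign. Causes were not tested beyond what an alternative's construction shows. Without the replicate block, which pairs arrays of 1 line, 0 of the 26 probe sets and 0 of all passed for XBP1 shRNA against NT (1140 of all at unadjusted p under 0.05), 0 of all for IRE1 shRNA against NT (621), and 0 and 0 for IRE1 against XBP1 shRNA (1250). Quantile normalisation gave 0 and 345 for XBP1 shRNA, 0 of all for IRE1 shRNA, 0 and 452 between the shRNAs, and 14 of all for silenced against control. Cyclic loess gave 0 of all for IRE1 shRNA, and turned MAF 1566324_a_at there to 0.10 and the FGFR3 interaction to 0.016. The 27307 probe sets of higher SD gave 6 of all for IRE1 shRNA and 2 of the 26 between the shRNAs; robust eBayes gave 18 and 2. With 1 probe set per gene, and so fewer features, 9 of 9 genes and 13632 of all passed between the lines, 1 and 436 for XBP1 shRNA, and 657 of all between the shRNAs. With the mean of a gene's probe sets the counts were 8 and 12993, 0 and 275, 5 of all for IRE1 shRNA, and 0 and 297, and NT against uninfected turned to 0.00013 for FGFR3 and 0.035 for DEPTOR. Leaving out each array in turn, and so fitting fewer samples, gave 12 to 17 of the 26 between the lines (lowest without either XBP1 shRNA array), 0 to 1 of the 26 and 0 to 342 of all for XBP1 shRNA, 0 to 38 of all for IRE1 shRNA, 0 to 2 and 1 to 755 between the shRNAs, 0 to 1 of all for NT against uninfected, 0 to 1 and 0 to 47 for silenced against control (the 1 was DEPTOR 218858_at without the IRE1 shRNA labelled array of RPMI-8226, adjusted p = 0.0432), and 0 to 1 of all for the interaction. Differences that changed sign ran, for XBP1 shRNA, from -1.56 to 0.12 (NUAK1); for IRE1 shRNA from -0.25 to 0.20 (MAF 1566324_a_at), -0.26 to 0.18 (FGFR3) and -1.07 to 0.60 (NUAK1); between the shRNAs from -0.21 to 0.25 (ITGB7); for NT against uninfected from -0.13 to 0.0029 (FGFR3), -0.092 to 0.039 (ITGB7), -1.14 to 0.54 (NUAK1) and -0.15 to 0.13 (DEPTOR); for silenced against control from -0.047 to 0.21 (FGFR3) and -0.36 to 0.027 (NSD2 223472_at); and for the interaction from -0.23 to 0.38 (CCND1), -0.33 to 0.18 (CCND3), -0.34 to 0.32 (FGFR3), -0.79 to 0.10 (MAF 1566324_a_at) and -0.75 to 0.17 (NSD2 223472_at).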
